A study of Homo sapiens with 6 samples.

Results

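RNA levels of 10 genes that build the tight junction strand and its three-cell corners were examined in H358, an established epithelial line from a human lung carcinoma. The genes were CLDN1, CLDN3, CLDN4, CLDN7, CLDN12 and CLDN23 (claudins), OCLN, MARVELD2 and MARVELD3 (proteins of the occludin family) and LSR (an angulin). They were taken by symbol from a table of 54607 Ensembl genes, and each symbol had 1 row. Knockdown cells carried lentiviral hairpins aimed at both ESRP1 and ESRP2, the epithelial splicing regulators, and control cells a control knockdown. Each group had 3 libraries, described by the submitters as biological triplicates (n = 3 in every mean ± SD below). Both groups are the same established line, and each carries its own constructs. What a construct does apart from lowering ESRP cannot be told apart from what lower ESRP does, and ESRP was measured only as RNA. Levels are in FPKM (fragments counted per kilobase of transcript and scaled for library size).

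Tight junctions seal the space between epithelial cells near their apical side. Claudins are small membrane proteins with 4 transmembrane spans that polymerise into the strands of the junction, and the mix of claudins in a cell sets whether the seal is tight or lets chosen ions pass. Occludin and its relatives lie along the strands, and at the corners where cells of a sheet meet, LSR recruits tricellulin, the product of MARVELD2. In the epithelial to mesenchymal transition, claudins and occludin are among the genes known to be switched off, with the SNAI and ZEB factors acting as repressors of several of them.

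ESRP1 had 12.10, 11.56 and 12.04 FPKM in the knockdown libraries, against 73.5, 72.6 and 72.5 FPKM in the control libraries, and ESRP2 had 8.762, 8.227 and 8.203 FPKM in the knockdown, against 15.5, 15.9 and 15.2 FPKM in the control. FPKM tables carry no read totals. Steps of single reads among low values put the knockdown libraries at 0.993, 1.43 and 1.24 times the depth of control replicate 1. Control replicates 2 and 3 stood at 1.66 and 1.65 times, so the deepest libraries were controls. These are estimates of relative depth only, and the total depth is unknown. Of 9 epithelial markers, 6 were tested and CDH1, KRT18, KRT19 and KRT8 fell in the knockdown, while EPCAM and NKX2-1 did not pass. Over all genes tested 10.2% fell. The summed level of the 9 ran from 2524 to 2617 FPKM in knockdown libraries and from 2887 to 2995 FPKM in control libraries. EPCAM, KRT8, KRT18, KRT19, CDH1 and the lung lineage factor NKX2-1 were all present, and SFTPB and SCGB1A1, which mark alveolar type II and club cells, were listed at 0 throughout. The 5 fibroblast markers summed to 8.67 to 11.1 FPKM in knockdown libraries and 8.38 to 10.2 FPKM in control libraries, of which COL1A1 was the largest part. Without COL1A1 they summed to 0.289 to 0.335 FPKM in knockdown libraries and 0.109 to 0.279 FPKM in control libraries. The 4 endothelial markers with a row summed to 1.52 to 1.69 FPKM in knockdown libraries and 1.45 to 1.52 FPKM in control libraries, with CLDN5 listed at 0. The 5 leukocyte markers summed to 1.30 to 1.54 FPKM in knockdown libraries and 1.56 to 1.70 FPKM in control libraries, and none of them reached a mean of 1 FPKM. The part of the lower CDH1 and keratin levels in the results below was not tested.

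All 10 genes had a mean of at least 1 FPKM and were tested with limma on log2(FPKM + 1) among 13611 genes. LSR, CLDN4, CLDN1 and CLDN3 fell (4 of 10), none rose, and 6 did not pass an adjusted p of 0.05. Among all genes tested 10.2% fell, 6.54% rose and 16.7% passed in either direction. Of the genes that passed 60.9% were lower, a share that was 67% after TPM scaling and 51% with trends on GC content and transcript length removed. The median log2 fold change of the 10 genes was -0.13, against -0.002 for all genes tested. In 6 genes the 3 knockdown libraries all lay below the 3 control libraries, among all genes tested 20.9%, and in 1, MARVELD2, they all lay above. The groups did not overlap in either direction for 38.1% of genes tested. The 10 genes and the gene lists were chosen with earlier results of these data known, so the shares of them that passed are a description. In bulk RNA, fewer cells with a gene's RNA and less of it per cell cannot be told apart.

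**Figure D1:**
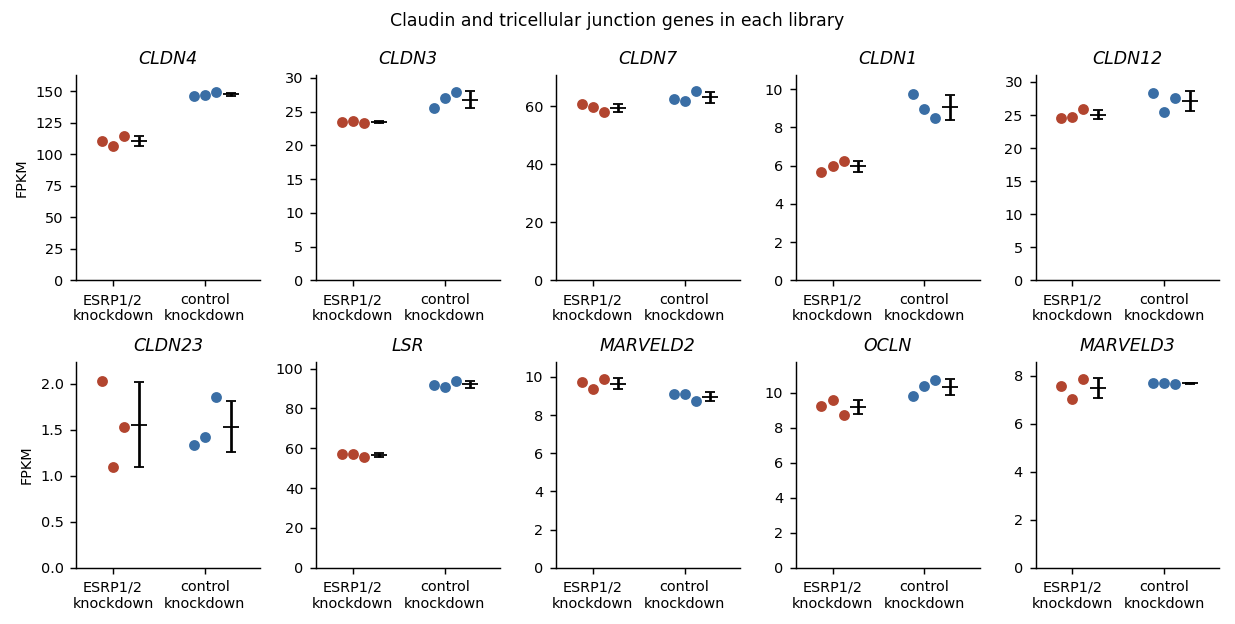
FPKM (vertical axes, each from 0) of the 10 genes in each library of the ESRP1/2 knockdown (red) and of the control knockdown (blue), with mean and SD (n = 3) beside the points. LSR, CLDN4 and CLDN1 show a gap between the groups, CLDN3, CLDN7 and OCLN are lower in the knockdown by less, MARVELD2 is higher, and CLDN12, CLDN23 and MARVELD3 overlap.

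LSR, also called angulin-1, marks tricellular contacts and brings tricellulin there. LSR (ENSG00000105699, hg19 chromosome 19, 35739559 to 35758865, plus strand) had 57.3, 57.3 and 55.4 FPKM in the knockdown libraries, against 92.0, 90.5 and 93.8 FPKM in the control libraries. The gap between the groups was far wider than the spread of the libraries within either. The knockdown mean of 56.7 ± 1.1 FPKM was 61.5% of the mean of 92.1 ± 1.7 FPKM in the control. Its log2 fold change was -0.69 (SE 0.03, limma adjusted p = 5.7e-05). GENCODE lists 14 transcripts of LSR. A gene's FPKM depends on the lengths of the transcripts it is divided among, and transcript levels were not analysed here.

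CLDN4 encodes a barrier-forming claudin that is abundant in many simple epithelia. CLDN4 (ENSG00000189143, hg19 chromosome 7, 73213872 to 73247017, plus strand) had 111, 107 and 115 FPKM in the knockdown libraries, against 146, 147 and 149 FPKM in the control libraries. It was the most abundant of the 10 genes in both groups, and its groups did not overlap. The means were 110.7 ± 3.9 FPKM in knockdown libraries and 147.6 ± 1.6 FPKM in control libraries, which makes 75.0% of control. The log2 fold change was -0.41 (SE 0.03, limma adjusted p = 4.1e-04).

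CLDN3 lies beside CLDN4 on chromosome 7, 29271 bases away and on the opposite strand, and encodes another barrier-forming claudin. CLDN3 (ENSG00000165215, 73183328 to 73184600, minus strand) had 23.45, 23.67 and 23.34 FPKM in the knockdown libraries, against 25.46, 27.00 and 27.87 FPKM in the control libraries. The groups did not overlap, and the knockdown libraries lay closer together than the control libraries. Its log2 fold change was -0.18 (SE 0.04, limma adjusted p = 0.019), at 87.7% of the control level. Of the pair, CLDN4 had the lower log2 fold change, and the ratio of CLDN4 to CLDN3 was 4.73, 4.51 and 4.91 in the knockdown libraries and 5.74, 5.46 and 5.35 in the control libraries. CLDN3 no longer passed when knockdown replicate 1 or 2, or control replicate 2 or 3, was left out (adjusted p of 0.057, 0.054, 0.073 and 0.067). It was also lost once trends on GC content and transcript length had been taken out of the libraries, where the log2 fold change was -0.095 (adjusted p = 0.078). The CLDN3 transcript had 69.2% G and C, the highest share among the 10 genes.

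CLDN1 encodes a claudin that seals epithelia and, in mice, is required for the water barrier of the skin. CLDN1 (ENSG00000163347, hg19 chromosome 3, 190023490 to 190040264, minus strand) had 5.69, 5.97 and 6.26 FPKM in the knockdown libraries, against 9.76, 8.95 and 8.47 FPKM in the control libraries. The highest knockdown library stayed below the lowest control library. The means were 5.97 ± 0.29 FPKM in knockdown libraries and 9.06 ± 0.65 FPKM in control libraries, or 65.9% of control. Its log2 fold change was -0.53 (SE 0.06, limma adjusted p = 0.0019). With a pseudocount of 0.1, which compresses low values less, it was -0.59.

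For the 4 genes that fell, the 250 bases before the RefSeq start site (build GRCh38.p14, gene strand, 5′ to 3′) are shown together with those of CLDN7, a claudin that did not pass, so that their motif content can be read side by side. Capitals mark matches, on either strand, to CAGGTG (the E-box bound by SNAI and ZEB factors), GGGCGG (GC box) and TGANTCA (AP-1 motif).
LSR, chr19:35248752-35249001, plus strand: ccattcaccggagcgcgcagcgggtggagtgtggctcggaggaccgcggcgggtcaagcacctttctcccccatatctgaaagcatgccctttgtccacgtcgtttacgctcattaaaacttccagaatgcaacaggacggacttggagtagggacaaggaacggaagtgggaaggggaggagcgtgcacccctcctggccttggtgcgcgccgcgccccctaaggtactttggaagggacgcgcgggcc
CLDN4, chr7:73830746-73830995, plus strand: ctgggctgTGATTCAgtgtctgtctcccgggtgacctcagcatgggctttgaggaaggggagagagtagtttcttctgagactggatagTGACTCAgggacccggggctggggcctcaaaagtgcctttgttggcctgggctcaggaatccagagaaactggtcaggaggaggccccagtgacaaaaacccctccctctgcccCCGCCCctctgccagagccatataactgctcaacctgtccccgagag
CLDN3, chr7:73770271-73770520, minus strand: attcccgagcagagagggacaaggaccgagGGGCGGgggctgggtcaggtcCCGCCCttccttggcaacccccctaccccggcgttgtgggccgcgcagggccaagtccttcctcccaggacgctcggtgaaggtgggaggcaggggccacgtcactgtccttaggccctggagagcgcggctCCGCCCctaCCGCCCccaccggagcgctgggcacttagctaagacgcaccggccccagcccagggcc
CLDN1, chr3:190322447-190322696, minus strand: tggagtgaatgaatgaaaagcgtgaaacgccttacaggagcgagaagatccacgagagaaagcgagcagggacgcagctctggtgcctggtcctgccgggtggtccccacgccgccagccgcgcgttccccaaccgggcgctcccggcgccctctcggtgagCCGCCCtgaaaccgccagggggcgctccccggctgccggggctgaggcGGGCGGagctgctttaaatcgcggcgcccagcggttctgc
CLDN7, chr17:7262479-7262728, minus strand: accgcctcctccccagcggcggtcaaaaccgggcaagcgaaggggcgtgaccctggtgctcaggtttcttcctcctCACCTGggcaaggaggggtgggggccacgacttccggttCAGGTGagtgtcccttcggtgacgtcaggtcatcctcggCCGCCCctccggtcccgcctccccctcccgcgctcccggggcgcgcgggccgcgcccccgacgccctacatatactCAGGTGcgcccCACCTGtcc
The E-box CAGGTG was in none of the 4 windows of the genes that fell. It occurred 4 times in the CLDN7 window shown, 1 of the 2 RefSeq starts of that gene, and was absent from the other. No other window of the 8 matched genes held as many, so the window shown does not stand for the genes that did not pass. The E-box occurred once in each of the 2 OCLN windows and in none of the MARVELD2 and CLDN12 windows. Among 35116 RefSeq promoter windows of the same length 17.5% held it. CLDN4 held 2 AP-1 motifs, a sequence in 6.57% of windows, and no other window of the 8 matched genes held one. The CLDN4 window lies within the span of the measured row rather than before its start, and GENCODE lists 5 transcripts of the gene. Any start of CLDN4 further upstream was not examined. The CLDN7 window shown belongs to the downstream start of that gene, and so lies after its other start. Windows and measured rows are in different builds, and where the remaining windows lie against their rows was not examined. The GC box was found 4 times for CLDN3, 3 times for MARVELD2, 2 times for CLDN1, once for CLDN4, once for the CLDN7 window shown and once for 1 of the OCLN windows, and was in 42.6% of all windows. The grainyhead motif AACCNGTT, in 1.49% of windows, was in none of these. The LSR window held none of the 4 motifs, which says only that these letters are not in it. C and G made up 62.0% of the LSR window and 71.6% of the CLDN3 window, against a median of 58.0% over all windows.

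CLDN7 encodes a claudin that binds EPCAM and lies largely along the lateral membrane. CLDN7 (ENSG00000181885, hg19 chromosome 17, 7163223 to 7166512, minus strand) had 60.7, 59.7 and 58.0 FPKM in the knockdown libraries, against 62.4, 61.6 and 65.2 FPKM in the control libraries. The groups did not overlap, but the gap between them was smaller than the spread within either. The log2 fold change was -0.08 (95% interval -0.16 to -0.01, limma adjusted p = 0.12), and the level was 94.3% of the control. The row overlaps C17orf81 on the opposite strand (13.5, 13.5 and 12.6 FPKM in knockdown libraries, 12.1, 11.1 and 13.5 FPKM in control libraries). The strand setting of the counting is not given in the sources used here.

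CLDN12 encodes a claudin that lacks the C-terminal motif by which most claudins bind ZO proteins. CLDN12 (ENSG00000157224, hg19 chromosome 7, 90013035 to 90142716, plus strand) had 24.6, 24.7 and 25.9 FPKM in the knockdown libraries, against 28.3, 25.5 and 27.6 FPKM in the control libraries. Knockdown replicate 3 lay above control replicate 2, so the groups overlapped. The log2 fold change was -0.11 (95% interval -0.21 to -0.004, limma adjusted p = 0.14). Its annotated span overlaps GTPBP10 and CDK14 on the same strand, so the assignment of reads among these genes is uncertain. CLDN23 encodes one of the less studied claudins. CLDN23 (ENSG00000253958, hg19 chromosome 8, 8559448 to 8561616, plus strand) had 2.03, 1.10 and 1.53 FPKM in the knockdown libraries, against 1.34, 1.42 and 1.85 FPKM in the control libraries. The groups overlapped, with the highest and the lowest value both in the knockdown, and the 95% interval of the log2 fold change ran from -0.34 to 0.34, the widest of the 10 genes (limma adjusted p = 1.0). AC087269.1 overlaps CLDN23 on the same strand. It had 4.2e-06, 0.614 and 1.6e-04 FPKM in the knockdown libraries, against 0.485, 0.385 and 2.5e-05 FPKM in the control libraries. The assignment of reads between CLDN23 and AC087269.1 is therefore uncertain.

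OCLN encodes occludin, the first strand protein to be identified. OCLN (ENSG00000197822, hg19 chromosome 5, 68788119 to 68853931, plus strand) had 9.22, 9.56 and 8.74 FPKM in the knockdown libraries, against 9.81, 10.4 and 10.7 FPKM in the control libraries. The groups did not overlap, and the log2 fold change of -0.15 did not pass (95% interval -0.27 to -0.04, limma adjusted p = 0.075). After TPM scaling it was -0.17 and passed (adjusted p = 0.045). The OCLN gene lies in a duplicated stretch of chromosome 5 with a pseudogene copy, OCLNP1, so its values are uncertain where reads fit both. The OCLN row also overlaps GUSBP3 on the opposite strand, which averaged 2.72 FPKM in knockdown libraries and 2.56 FPKM in control libraries.

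MARVELD2 encodes tricellulin, the occludin relative of the corners, and its gene is the tested neighbour of OCLN, ending 47961 bases before it on the same strand. MARVELD2 (ENSG00000152939, hg19 chromosome 5, 68710939 to 68740157) had 9.72, 9.35 and 9.89 FPKM in the knockdown libraries, against 9.08, 9.11 and 8.71 FPKM in the control libraries. All knockdown libraries lay above all control libraries. The log2 fold change of 0.10 did not pass (95% interval -0.001 to 0.19, limma adjusted p = 0.16), and over the 14 alternatives it stayed between 0.08 and 0.12. MARVELD3, the remaining occludin relative, spans hg19 chromosome 16, 71660089 to 71675868 (ENSG00000140832, plus strand). It had 7.58, 7.05 and 7.85 FPKM in the knockdown libraries, against 7.71, 7.68 and 7.66 FPKM in the control libraries. The control libraries lay within the range of the knockdown libraries (log2 fold change -0.03, 95% interval -0.15 to 0.08, limma adjusted p = 0.68). PHLPP2 overlaps MARVELD3 on the opposite strand and had log2 fold change -0.004.

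The order of the 10 genes by mean FPKM, a level per length of transcript, differed between the groups. The places of LSR, CLDN7, CLDN1, OCLN, MARVELD2 and MARVELD3 were not the same. In the knockdown the order was CLDN4, CLDN7, LSR, CLDN12, CLDN3, MARVELD2, OCLN, MARVELD3, CLDN1 and CLDN23, with only MARVELD2 and OCLN overlapping as neighbours. In the control it was CLDN4, LSR, CLDN7, CLDN12, CLDN3, OCLN, CLDN1, MARVELD2, MARVELD3 and CLDN23, where CLDN12 overlapped CLDN3 and CLDN1 overlapped MARVELD2. LSR thus stood below CLDN7 in every knockdown library and above it in every control library.

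Ratios of 2 genes within a library do not depend on how the library was scaled and show unequal change only. LSR and MARVELD2 both encode proteins of the corners. The FPKM ratio of LSR to MARVELD2 was 5.896, 6.128 and 5.603 in the knockdown libraries and 10.1, 9.94 and 10.8 in the control libraries. LSR to CLDN7 had a ratio of 0.944, 0.960 and 0.955 in the knockdown libraries and 1.48, 1.47 and 1.44 in the control libraries. Both ratios separated the groups without overlap. CLDN4 to CLDN7 gave 1.82, 1.79 and 1.98 in the knockdown libraries and 2.34, 2.39 and 2.29 in the control libraries. MARVELD2 to OCLN gave 1.05, 0.978 and 1.13 in the knockdown libraries and 0.926, 0.876 and 0.812 in the control libraries. These pairs were chosen after their values had been seen and were not tested.

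**Figure D2:**
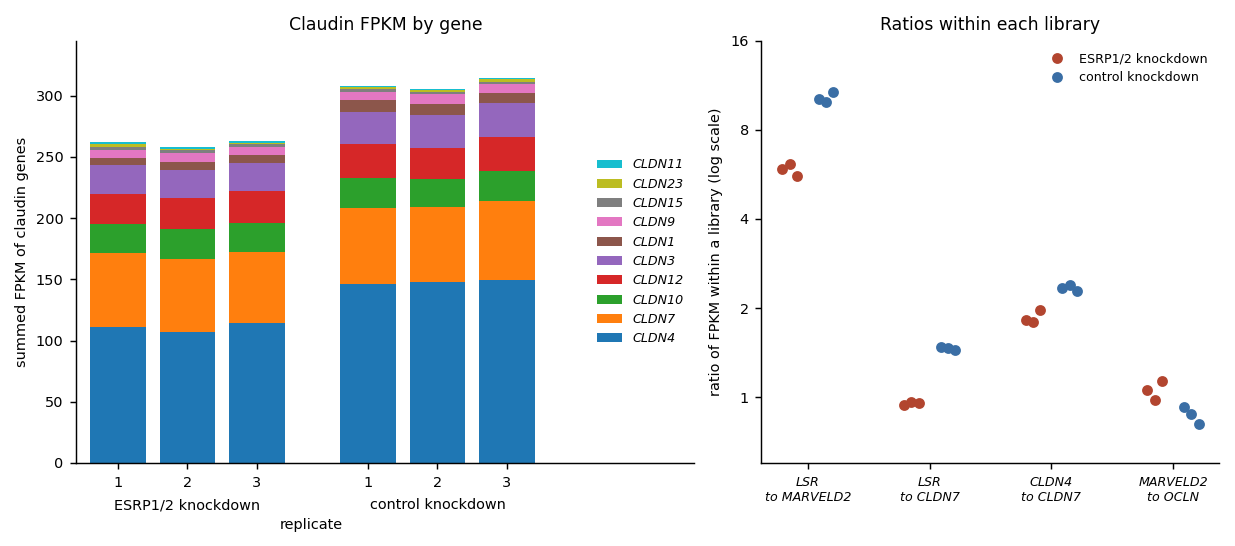
Left, FPKM of the 10 claudin genes with a mean of at least 1 FPKM, stacked for each library. The knockdown libraries summed to 258 to 263 FPKM and the control libraries to 306 to 315 FPKM over all claudin rows, with CLDN4 the largest block. Right, ratio of FPKM between 2 genes within a library (log scale), knockdown in red and control in blue.

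Over all 23 claudin rows the summed FPKM was 261 ± 2.7 in the knockdown and 309.8 ± 4.7 in the control, 84.3% of the control sum. CLDN4 made up 75.9% of the difference of -48.6 FPKM, CLDN7 7.41%, CLDN3 6.77%, CLDN1 6.35% and CLDN12 4.27%. CLDN4 had the largest difference in FPKM among the claudins, while among the tested claudins CLDN1 stood at the lowest percentage of its control level. The share of CLDN4 in claudin FPKM was 42.2%, 41.3% and 43.5% in the knockdown libraries and 47.4%, 48.2% and 47.3% in the control libraries. CLDN7 made up 23.1%, 23.1% and 22.0% in the knockdown libraries and 20.2%, 20.1% and 20.7% in the control libraries.

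The remaining claudins were mostly below 1 FPKM. Of 17 others, 4 were tested and none passed. CLDN10, an ion-selective claudin, had 23.8, 25.0 and 23.5 FPKM in the knockdown libraries and 24.2, 22.8 and 24.1 FPKM in the control libraries (log2 fold change 0.02, limma adjusted p = 0.76), a level close to that of CLDN3. CLDN9 had 6.74, 7.28 and 6.63 FPKM in the knockdown libraries and 7.21, 7.80 and 7.05 FPKM in the control libraries (log2 fold change -0.08, adjusted p = 0.34). CLDN15, a channel-forming claudin, did not pass (log2 fold change 0.05, adjusted p = 0.745). CLDN11, known from myelin and Sertoli cells, had 1.396, 1.357 and 1.152 FPKM in the knockdown libraries and 0.807, 0.947 and 1.05 FPKM in the control libraries. Its groups did not overlap, but the log2 fold change of 0.25 did not pass (adjusted p = 0.11). The other 13 had means below 1 FPKM, of which 5 were listed at 0 in every library. CLDN2, a claudin that forms cation channels, was among those too low to test, at 0.158, 0.199 and 0.155 FPKM in the knockdown libraries and 0.111, 0.0770 and 0.0586 FPKM in the control libraries. It was singled out after its values had been seen.

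**Figure D3:**
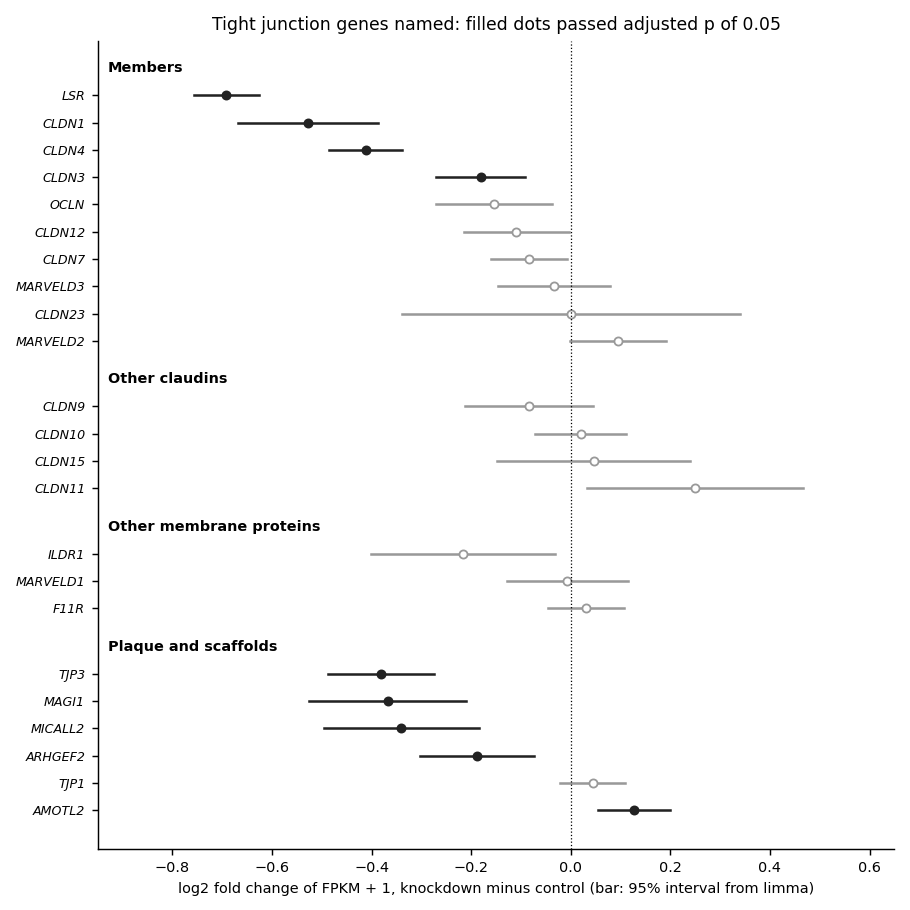
Log2 fold change of FPKM + 1 (knockdown minus control) with 95% interval for the 10 genes described here and for other tight junction genes. The other genes are the tested ones whose fold change is given in the text. Filled dots passed an adjusted p of 0.05, among them LSR, CLDN1, CLDN4 and CLDN3 at the top and TJP3, MAGI1, MICALL2, ARHGEF2 and AMOTL2 among the plaque proteins.

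Outside the claudins, the membrane proteins and the plaque of the junction were described from lists of other tight junction genes, also chosen with earlier results known. Of 50 such genes, the other claudins included, 28 were tested, 4 fell, 1 rose and 23 did not pass, which is 17.9% passing in either direction, against 16.7% of all genes tested. Their median log2 fold change was -0.07. Of the 5 other membrane proteins tested none passed. F11R, the junctional adhesion molecule JAM-A, had 119, 122 and 116 FPKM in the knockdown libraries and 119.5, 112 and 118 FPKM in the control libraries (log2 fold change 0.03, limma adjusted p = 0.56). MARVELD1, a further gene with a MARVEL domain, did not pass either (log2 fold change -0.01, adjusted p = 0.945). ILDR1, or angulin-2, the relative of LSR, was named for that kinship after its values had been seen. It had 1.62, 1.53 and 1.57 FPKM in the knockdown libraries and 2.14, 2.09 and 1.76 FPKM in the control libraries, and did not pass (log2 fold change -0.22, adjusted p = 0.10). ILDR2, the third angulin, was below 0.1 FPKM in every library.

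Of 19 plaque and scaffold genes tested, 4 fell, 1 rose and 14 did not pass, which is 26.3% passing, against 16.7% of all genes tested in either direction, 10.2% lower and 6.54% higher. TJP3, the ZO-3 scaffold that binds the claudin C-terminus, had 5.27, 5.46 and 5.31 FPKM in the knockdown libraries and 7.31, 7.02 and 7.48 FPKM in the control libraries. Its groups did not overlap (log2 fold change -0.38, SE 0.05, limma adjusted p = 0.0022), and it passed whichever library was left out. The scaffold MAGI1 averaged 3.49 ± 0.32 FPKM in knockdown libraries and 4.78 ± 0.22 FPKM in control libraries (log2 fold change -0.37, adjusted p = 0.011, or 0.0501 without control replicate 2). MICALL2, the partner of RAB13 in moving occludin and claudins to the surface, averaged 20.6 ± 2.0 FPKM in knockdown libraries and 26.3 ± 1.1 FPKM in control libraries (log2 fold change -0.34, adjusted p = 0.014). MICALL2 no longer passed when knockdown replicate 1 or 2, or control replicate 2 or 3, was left out (adjusted p of 0.052, 0.054, 0.060 and 0.061). ARHGEF2, the exchange factor GEF-H1, averaged 41.8 ± 2.9 FPKM in knockdown libraries and 47.7 ± 0.27 FPKM in control libraries (log2 fold change -0.19, adjusted p = 0.039). ARHGEF2 no longer passed when knockdown replicate 3 or any 1 of the control libraries was left out (adjusted p up to 0.12). AMOTL2, an angiomotin, rose to 21.5 ± 0.20 FPKM in the knockdown, against 19.6 ± 0.36 FPKM in the control (log2 fold change 0.13, adjusted p = 0.031). Leaving out any library but knockdown replicate 3 ended the AMOTL2 call (adjusted p up to 0.10). TJP1, which encodes the ZO-1 scaffold, did not pass (log2 fold change 0.04, adjusted p = 0.33).

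Among 5 surface partners of claudins, a list also chosen with earlier results known, 3 fell and none rose, against 10.2% of all genes tested that fell. CD9, a tetraspanin, averaged 123 ± 8.9 FPKM in knockdown libraries and 152 ± 5.8 FPKM in control libraries (log2 fold change -0.31, limma adjusted p = 0.0091). CD81, a tetraspanin that pairs with CLDN1 in hepatitis C virus entry, fell by 0.11 on the log2 scale (adjusted p = 0.047), and that call was lost whichever library was left out (adjusted p of 0.067 to 0.13) and with the GC and length trends removed (adjusted p = 0.43). EPCAM and SCARB1 did not pass.

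Of 19 factors known to act on genes of epithelial junctions, 12 were tested, 5 fell and 2 rose, which is 58.3% passing, against 16.7% of all genes tested in either direction, 10.2% lower and 6.54% higher. This list too was chosen with earlier results of these data known, so its share is a description. The smallest adjusted p values were those of KLF4 (log2 fold change -0.36, limma adjusted p = 5.3e-04), GRHL1 (-0.81, 5.3e-04), EHF (-0.42, 0.0042) and OVOL1 (-0.49, 0.0043). OVOL1, a repressor of mesenchymal genes, had 2.54, 2.36 and 2.80 FPKM in the knockdown libraries and 3.79, 4.23 and 4.01 FPKM in the control libraries. GRHL2, which activates CLDN4 in mouse epithelia, had 23.7, 23.5 and 23.0 FPKM in the knockdown libraries and 23.1, 24.0 and 24.7 FPKM in the control libraries and did not pass (adjusted p = 0.55). The 2 that rose were the repressors SNAI1 (0.26, adjusted p = 0.015) and SNAI2 (0.17, adjusted p = 0.025). SNAI1 no longer passed when replicate 2 of either group was left out (adjusted p up to 0.056), and SNAI2 when any library but knockdown replicate 3 was (adjusted p up to 0.084). The part of any of these factors in the levels of the claudins was not tested.

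Neighbours on the chromosome gave a comparison for single genes. LSR lies 1030 bases before USF2 on the same strand, and USF2 had 35.9, 37.4 and 35.9 FPKM in the knockdown libraries and 35.0, 36.0 and 37.4 FPKM in the control libraries (log2 fold change 0.01, limma adjusted p = 0.865). The nearest tested gene on the other side, FXYD5, which encodes a regulator of the sodium pump, fell (log2 fold change -0.23, adjusted p = 0.0029). Beyond CLDN3, ABHD11 did not pass (log2 fold change -0.20, adjusted p = 0.11), nor did LIMK1 beyond CLDN4 (log2 fold change -0.05, adjusted p = 0.41). The neighbours of CLDN1, LEPREL1 and IL1RAP, had log2 fold changes of 0.08 and 0.14, and neither passed. Of the tested genes that flank CLDN7, CTDNEP1 did not pass (log2 fold change 0.04, adjusted p = 0.52) and YBX2 fell (log2 fold change -0.25, adjusted p = 0.028), a call lost whichever library was left out (adjusted p of 0.051 to 0.098).

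Genes with the profile nearest to those of LSR and CLDN4 over the 6 libraries were found by the root mean square distance between log2(FPKM + 1) values centred per gene. For LSR they were SQRDL, SLC39A11 and SCD, at distances of 0.029, 0.041 and 0.046 on the log2 scale. SCD, the stearoyl-CoA desaturase, averaged 118 ± 3.7 FPKM in knockdown libraries and 190.3 ± 1.2 FPKM in control libraries. For CLDN4 they were RNF19B, ITGB4 and STK39, at 0.014, 0.019 and 0.022. ITGB4, the integrin subunit of hemidesmosomes, averaged 51.4 ± 1.2 FPKM in knockdown libraries and 70.3 ± 0.86 FPKM in control libraries. Since these genes were picked for their likeness, their values are a description.

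**Figure D4:**
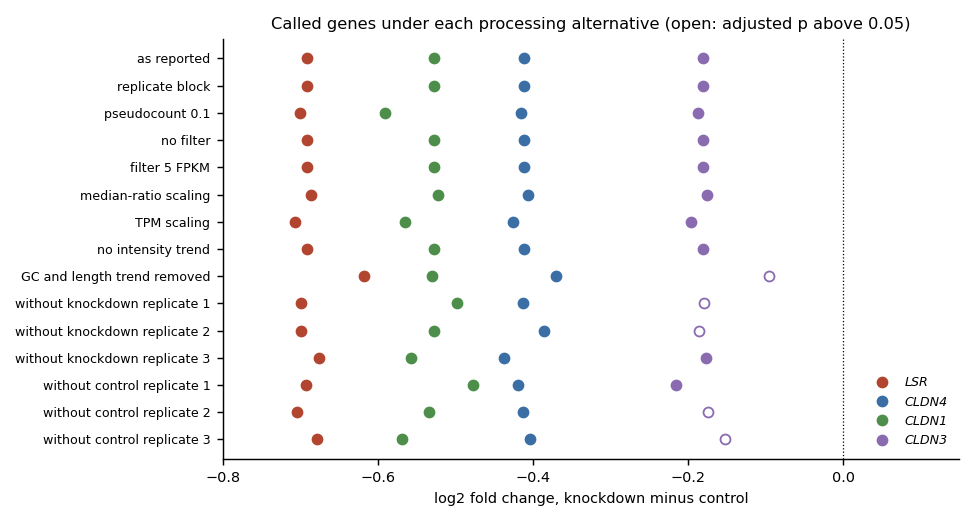
Log2 fold change (knockdown minus control) of LSR, CLDN1, CLDN4 and CLDN3 as reported and under each of 14 processing alternatives. Open dots had an adjusted p above 0.05, which occurred for CLDN3 in 5 of the 14 and for none of the other genes shown.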

How the data were processed

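Per the labels, the 6 H358 libraries came from a stranded mRNA kit, with paired reads. The authors deposited FPKM values, 1 per Ensembl gene and library. The submitters' processing notes name TopHat 1.4.1, Cuffdiff 2.2.0 and build hg19. Neither annotation release nor strand setting is given in the sources used here. Starts counted from 0 were raised by 1. GENCODE v29 gave transcript lengths and GC content, and RefSeq (GRCh38.p14) the promoters, found for 8 of the 10 genes. Knockdown was compared with control by limma 3.58.1 (R 4.3.3, two-sided, moderated variances with a trend on mean level) on log2(FPKM + 1) for 13611 rows averaging 1 FPKM or more, with Benjamini-Hochberg adjustment over all of them and a threshold of 0.05. On this scale changes of low genes come out too small. The limma step was run on simulated data drawn from the same model, with independent libraries and known changes. Such data do not cover errors in the FPKM themselves. Descriptive values were computed in Python 3.11.15. The members and lists were chosen with earlier results of these data known. All 10 members were named, with up to 4 called genes per list by smallest adjusted p, called genes against their list's direction, every other claudin above the filter, the 2 most abundant genes of a list with no call, neighbours and the 3 nearest profiles. GRHL2, OCLN's copy, CLDN2, ILDR1 and TJP1 were added later. Some genes of the lists are counted but not reported here by name. Alternatives were a replicate block, another pseudocount, 2 other filters, 2 scalings, no trend, a GC and length correction, and leaving out each library.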

Additional observations from a re-analysis of the deposited data

How the results depend on the processing

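LSR, CLDN4 and CLDN1 fell and passed under all 14 alternatives, with log2 fold changes of -0.71 to -0.62, -0.44 to -0.37 and -0.59 to -0.48. CLDN3 lost its call in 5 of them. The number of the 10 genes that passed was 3 to 5. Libraries with the same replicate number shared no strong deviation from their group means (correlations across genes of -0.017, 0.062 and 0.070). These correlations cannot show whether the libraries were prepared as pairs. With the replicate numbers as a block 1433 genes passed rather than 2278, 4 of the 10 genes and 3 of the other tight junction genes rather than 5. Under the block KRT8 (adjusted p = 0.062), SNAI2 (0.053), ARHGEF2 (0.069), AMOTL2 (0.083), CD81 (0.11) and YBX2 (0.051) no longer passed. With no filter KRT8 (0.052), SNAI2 (0.053), ARHGEF2 (0.11), MICALL2 (0.061), CD81 (0.092) and YBX2 (0.077) did not, nor ARHGEF2 (0.070) and CD81 (0.098) without the intensity trend, nor YBX2 (0.051) with the GC and length trends removed. With no filter on low values 1413 genes passed, and 3 of the other tight junction genes. When 1 library was left out, 1187 to 1983 genes passed, and 1 to 4 of the other tight junction genes, with 1 when control replicate 2 was left out and 2 when control replicate 3 was. Without knockdown replicate 1 or 2 or control replicate 1 the count was 3. Some genes that did not pass changed sign: CLDN23 had 0.0029 after median-ratio scaling, 0.054 with the GC and length trends removed and -0.13 to 0.13 with a library left out. MARVELD1 had 0.050 with those trends removed and -0.059 to 0.024 with a library left out. Leaving out a library gave -0.064 to 0.0054 for MARVELD3, -0.026 to 0.10 for CLDN15 and -0.0070 to 0.038 for CLDN10. The causes were not tested. CLDN23 did not reach the filter of 5 FPKM, so that setting gave no value for it. FPKM carry no counts, so no counting error could be given, and 3 libraries per group limit the precision.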
